A study of Drosophila melanogaster with 39 samples.

Results

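Expression of 10 genes of the heparan sulfate system was measured by RNA-seq of single fly heads: the sulfatase gene Sulf1, the modifying enzymes sfl and Hs6st, the chain polymerases ttv, sotv and botv, and the core proteins dally, dlp, Sdc and trol. They are 10 of 17559 genes in the deposited count table. Sulf1 was chosen because it was higher in shocked than in naive heads in these same libraries, and the other 9 were chosen by their function. By gene name 9 were found, and sotv, listed under its older name Ext2, by its gene ID.

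The study sequenced polyadenylated RNA from 37 individual heads of adult male Drosophila melanogaster, each library from 1 fly. All flies had the genotype Cantonized w1118, which carries a mutation of the eye colour gene white, so the naive controls share that mutation with the shocked flies. Sample titles give 5 groups by treatment and by a class of place preference named High, Mid or Low. There were 7 heads each of naive Mid and naive High flies. The shocked flies gave 6 heads of class High, 8 of class Mid and 9 of class Low, and no naive Low group was analysed here. How the classes were bounded is not stated in the labels. The protocol describes shocks of 60 V over 5 min, a behavioural assay at 1.5 h and freezing at 2.5 h, in the same text for naive and shocked samples, so treatment was taken from the titles.

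Heparan sulfate is a long, sulfated sugar chain built in the Golgi on core proteins that are then carried to the cell surface or secreted into basement membranes. The pattern of sulfate groups along the chain sets which secreted signals and receptors it holds, among them Wingless, Hedgehog, FGF, BMP and Slit in flies. Sulf1 acts after the chain has left the cell: it removes 6-O-sulfate groups, the groups that Hs6st adds. In the fly nervous system, glypicans and syndecan are known for roles in axon guidance and at the neuromuscular synapse.

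Library totals ranged from 5.01 to 11.32 M (megacounts), with a median of 7.65 M. All 10 genes passed the filter on low counts, with 104 to 4802 counts per library. Markers of 7 tissues of the head (neuron, glia, fat body, haemocyte, muscle, photoreceptor and antenna, 5 genes each) were all found, and none was at 0 in every library. Summed fat body markers ranged from 940 to 10500 CPM (counts per M of library total). Summed antennal markers ranged from 11.7 to 1016 CPM, so the heads differed in the RNA of these marker genes. In bulk RNA, fewer cells of a type and less RNA per cell cannot be told apart.

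Levels between genes were compared as mean CPM per kb of exon over the 37 heads. Length was that of the merged exons of all annotated transcripts, 20674 bases from 25 transcripts for trol and 2694 from 1 for sotv. Genes with many transcripts can thus be set too low, and which transcripts were present was not measured. In CPM trol had 213 ± 22.9 and Sdc 382 ± 68 (SD, n = 37). Syndecan (Sdc), the transmembrane core protein, was highest at 90.9 ± 16.2 CPM per kb (SD, n = 37). The glypicans, core proteins anchored in the membrane by a lipid, followed with 23.2 ± 13.3 CPM per kb for dally and 20.8 ± 2.84 for dlp. Then came sotv at 19.1 ± 1.91 and Sulf1 at 17.5 ± 2.1 CPM per kb. From dally to Sulf1 the mean of each neighbour lay within 1 SD of the next. All genes were measured in the same heads and differences within heads were not tested, so no order is claimed there. In CPM, dally had 104 ± 59.4 over the 37 heads. Without 1 naive High head at 449 CPM it had 94.3 ± 11.3 (SD, n = 36). Hs6st had 12.9 ± 1.5, sfl 10.7 ± 1.07, trol 10.3 ± 1.11, ttv 8.11 ± 1.18 and botv 5.95 ± 0.738 CPM per kb. Of these, the ranges of mean ± 1 SD overlapped between Hs6st and sfl, sfl and trol, and trol and ttv, but not between Sulf1 and Hs6st or between ttv and botv.

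**Figure D1:**
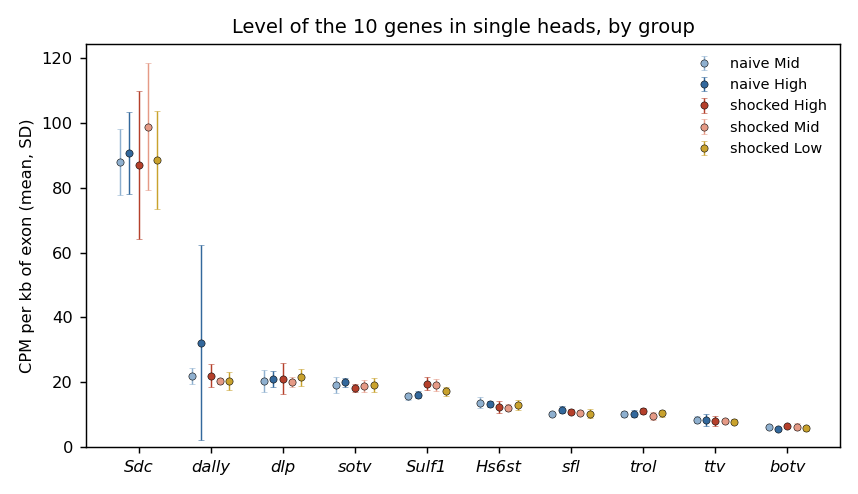
Level of each of the 10 genes in CPM per kb of exon, on a linear axis from 0, as the mean of each group (point, coloured by group) with an error bar of 1 SD over its 6 to 9 heads. Sdc stands above all the others and botv is lowest; the long dally bar is that of naive High, which holds 1 head at 449 CPM.

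Sulf1, which encodes the extracellular 6-O-endosulfatase, lies on chromosome 3R from 16310542 to 16339575 on the minus strand (dm6, FBgn0040271). In naive Mid heads it had 76.1 CPM in the lowest library, 85.7 at the median and 89.6 in the highest. In naive High heads these values were 76.5, 88.4 and 90.5 CPM. Naive heads of both classes thus covered nearly the same narrow range. In shocked High heads Sulf1 had 86.3, 105 and 114 CPM, and in shocked Mid heads 86.5, 105 and 113 CPM. Both shocked classes reached well above the naive range, but their lowest heads lay inside it. Of the 14 shocked High and Mid heads, 11 were above every naive head, and 8 of the 14 naive heads were below every one of them.

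Mean Sulf1 was 84.1 ± 5.4 CPM in naive heads (SD, n = 14) and 102 ± 9.88 CPM in shocked High and Mid heads (SD, n = 14). The fitted difference was 0.29 on the log2 scale (SE 0.05), a fold of 1.22, with both classes weighted equally. Within High it was 0.28 (SE 0.07) and within Mid 0.30 (SE 0.07). These differences chose the gene and are given as a description with no test. In the same comparison 0.00974% of the 10272 genes tested passed an adjusted p of 0.05. That was 1 gene, Sulf1 itself, which was chosen by this difference, so its passing is no support. Within High 0% of genes passed and within Mid 0.0195%. The authors' deposited table gives Sulf1 a log2 difference of 0.29 within each class.

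**Figure D2:**
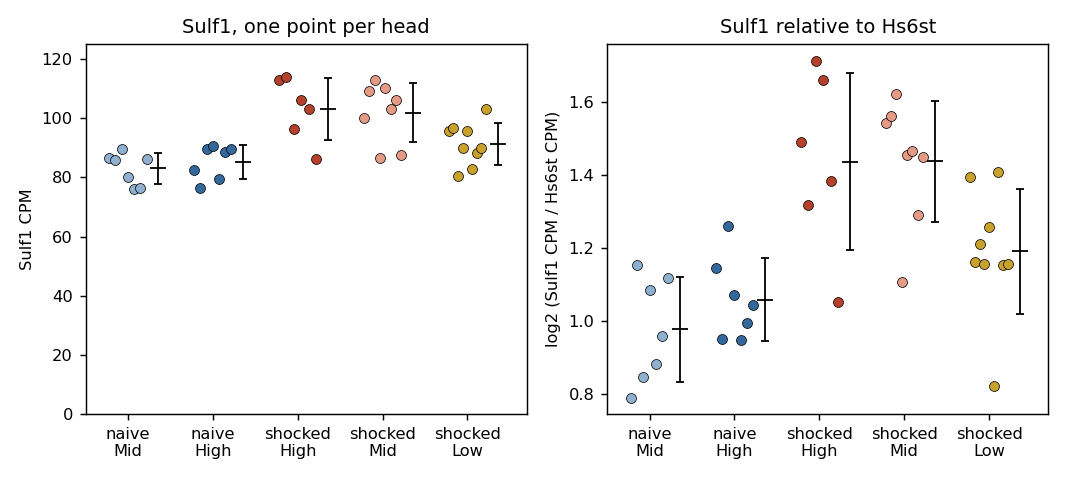
Sulf1 in every head by group: left, CPM; right, log2 of the Sulf1 to Hs6st ratio, with 1 point per head, a bar at the group mean and an error bar of 1 SD. Shocked High and shocked Mid heads sit highest in both panels and overlap the naive heads at their lower end, with shocked Low between them.

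Shocked Low heads lay between the other shocked heads and the naive heads. Their Sulf1 level was 80.3 CPM in the lowest head, 89.9 at the median and 103 in the highest. Of 9 Low heads, 4 were above every naive head and 2 were below every shocked High and Mid head, while 8 of the 14 High and Mid heads were above every Low head. Log2 differences were -0.18 (SE 0.07) against shocked High, -0.16 (SE 0.06) against shocked Mid and 0.12 (SE 0.05) against all naive heads. These comparisons share libraries with the one that chose Sulf1 and carry no test. Of all genes, 0% passed against shocked High, 0.0195% against shocked Mid and 0% against naive heads.

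Between preference classes the fitted differences of Sulf1 were near 0. Naive High and naive Mid heads differed by 0.04 on the log2 scale (SE 0.07, 95% interval -0.10 to 0.17). Shocked High and shocked Mid heads differed by 0.02 (SE 0.07, interval -0.12 to 0.15). The shock difference in High minus that in Mid was -0.02 (SE 0.10, interval -0.21 to 0.17). All of these values use libraries behind the choice of Sulf1, naive or shocked, so they are a description with no test. The last is also the difference of both shock values above. The intervals leave room for differences of up to about 0.2 in either direction between the shock values of High and Mid. Among all genes 0% passed in naive High against naive Mid, 0.0681% in shocked High against shocked Mid and 0% in the interaction.

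Sulf1 varied little between heads of 1 group. Its biological coefficient of variation, the spread left after counting error, was 9.2%, at percentile 4.2 of all tested genes, whose median was 16.1%. Sulf1 was chosen from these same libraries, where a low spread helps a small difference to stand out. The percentile is therefore a description. Sulf1 shares 265 exon bases with SF2, a splicing factor gene on the same strand, which is 5.0% of its exon length, and 207 bases (3.9%) with CG44044 on the opposite strand. Reads from the stretch shared with SF2 cannot be assigned by strand. Those shared with CG44044 could be only in a stranded count, and no source used here gives the strand setting. CG44044 was not found by name among the genes tested. SF2 had 164 to 173 CPM as group means, and its shock difference was -0.05 (SE 0.05, Benjamini-Hochberg adjusted p = 0.877 by edgeR's quasi-likelihood test).

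Hs6st encodes the transferase that adds the 6-O-sulfate groups (chromosome 3R, 19929277 to 20008512, minus strand). Naive heads had 37.3, 40.5 and 50.1 CPM as lowest, median and highest values, shocked High and Mid heads 29.4, 38.4 and 45.7, and shocked Low heads 33.2, 40.3 and 46.9. The ranges overlapped, with 6 of the 14 shocked High and Mid heads below every naive head. The log2 difference was -0.13 (SE 0.06, adjusted p = 0.789 by edgeR), which did not pass. In the same comparison neuronal markers were negative in 5 of 5 (median -0.07), and glial and muscle markers positive in 5 of 5 each (medians 0.08 and 0.07). Positive too were 1 of 4 fat body, 1 of 5 haemocyte, 2 of 5 photoreceptor and 1 of 5 antennal markers. No marker passed, and their part in the Hs6st difference was not tested. As a ratio within each head, Sulf1 to Hs6st on the log2 scale averaged 0.98 ± 0.14 in naive Mid, 1.06 ± 0.11 in naive High, 1.44 ± 0.24 in shocked High, 1.44 ± 0.17 in shocked Mid and 1.19 ± 0.17 in shocked Low heads (SD, n = 7, 7, 6, 8 and 9). This ratio contains Sulf1 and is a description.

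The enzyme sulfateless (sfl), the N-deacetylase and N-sulfotransferase that starts sulfation of the chain, lies on chromosome 3L from 6495680 to 6550104 on the plus strand. Naive Mid heads had 54.6, 59.8 and 63.5 CPM, and naive High heads 55.9, 66.6 and 73.9 CPM, as lowest, median and highest. Of the 7 naive High heads, 5 were above every naive Mid head, yet the ranges overlapped. The log2 difference of 0.17 (SE 0.08) did not pass, with an adjusted p of 1 by edgeR's quasi-likelihood test. Shocked heads ranged from 47.6 to 70.5 CPM in Low and from 55.2 to 68.2 CPM in High and Mid, and the shock difference of sfl was -0.02 (SE 0.05, adjusted p = 0.975 by edgeR).

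Chains are extended by ttv and sotv, the fly members of the exostosin family that work together as a polymerase, while botv, a related enzyme, is known for starting the chain. On dm6, ttv lies on chromosome 2R from 14526267 to 14587917 (plus strand), sotv on 2R from 16145904 to 16148719 (minus) and botv on 2R from 19129589 to 19133706 (plus). The level of ttv was 39.7, 59.4 and 83.6 CPM in naive heads and 41.2, 58.4 and 67.2 in shocked High and Mid heads (lowest, median, highest). That of sotv was 39.3, 53.4 and 60 CPM in naive heads and 43.7, 49.2 and 57.3 CPM in shocked High and Mid heads. For both genes the groups covered each other almost fully. Their shock differences were the same to 2 decimals, -0.08 for ttv (SE 0.08, adjusted p = 0.885) and -0.08 for sotv (SE 0.06, adjusted p = 0.85, both by edgeR).

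The botv gene had the lowest counts of the 10. Naive High heads had 18, 19.6 and 22.4 CPM and shocked High heads 21.3, 21.8 and 26.6 CPM as lowest, median and highest. Of the 7 naive High heads, 6 were below every shocked High head. Within High the log2 difference was 0.23 (SE 0.10, adjusted p = 0.863 by edgeR's quasi-likelihood test), and within Mid it was 0.01 (SE 0.09, adjusted p = 0.964 by edgeR). Their difference, 0.22 (SE 0.13, adjusted p = 0.51 by edgeR), did not pass either.

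**Figure D3:**
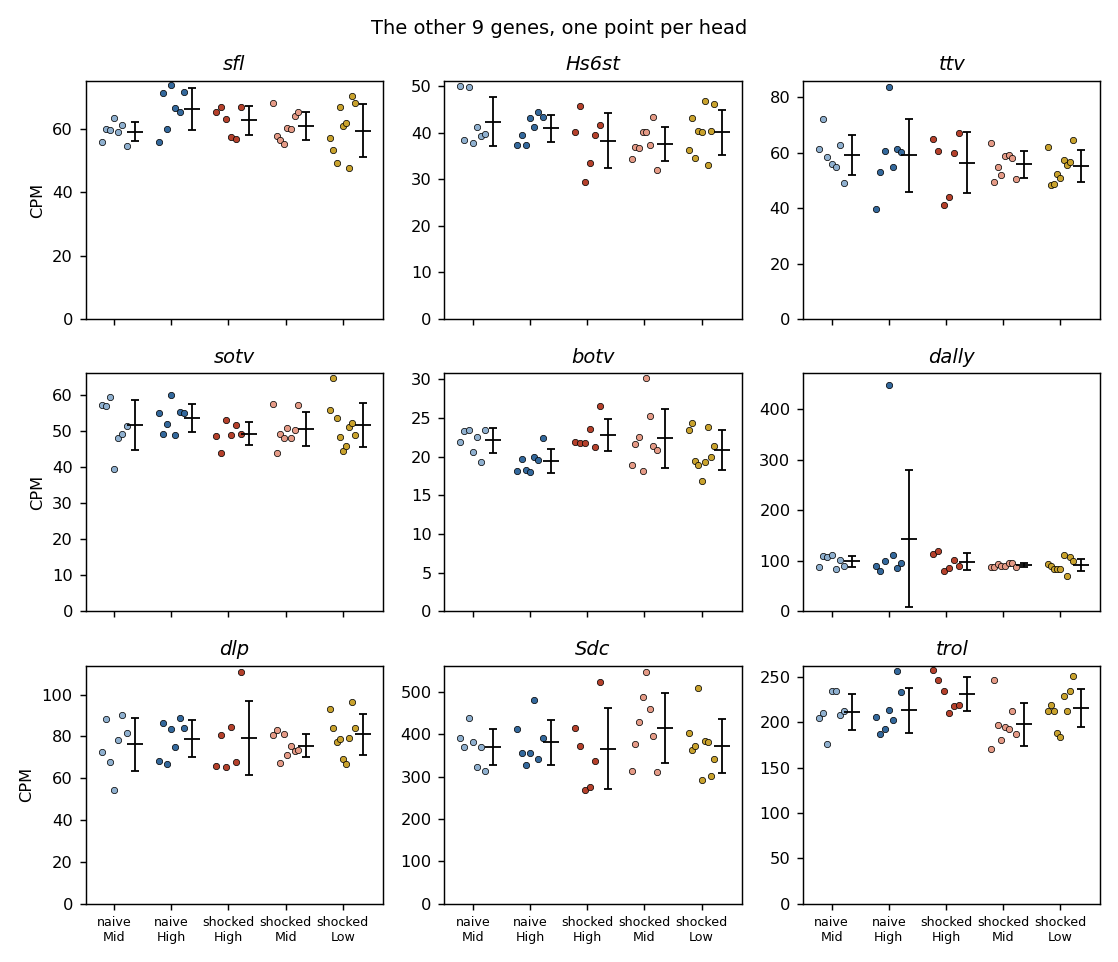
CPM of the 9 other genes in every head, by group, with 1 panel per gene, 1 point per head, a bar at the group mean and an error bar of 1 SD. Groups overlap in all panels, and 1 naive High head stands at 449 CPM in the dally panel.

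The glypican dally, known for shaping the spread of Dpp and Wingless in the wing disc, lies on chromosome 3L from 8827505 to 8891192 on the plus strand. In 36 of the 37 heads it ranged from 70.8 to 120 CPM, with a mean of 94.3 ± 11.3 CPM (SD, n = 36). The remaining head, naive High replicate 4, had 449 CPM from 2597 counts, against 111 CPM for the next highest head of its group. Of 7552 genes with a mean of at least 10 CPM, dally had the largest excess of that head over the other 36, at 2.26 on the log2 scale, ahead of tobi at 1.91 and Diedel at 1.69. In the same head ttv, at 83.6 CPM, had rank 122 with an excess of 0.58.

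That 1 head set the size and sign of several dally differences. With it, dally was 0.54 higher on the log2 scale in naive High than in naive Mid heads (SE 0.24, adjusted p = 1 by edgeR), and without it the difference was -0.09. The shock difference within High was -0.54 (SE 0.25, adjusted p = 0.863 by edgeR) with it and 0.08 without it. The interaction went from -0.43 (SE 0.34, adjusted p = 0.624 by edgeR) to 0.20. The pooled shock difference was -0.33 (SE 0.17, adjusted p = 0.802 by edgeR) and -0.02 without it. Naive High heads had 144 ± 135 CPM (SD, n = 7) with it and 93.1 ± 11.2 CPM (SD, n = 6) without it, beside 98.8 ± 11.3 CPM in naive Mid heads (SD, n = 7).

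The other glypican, dlp, which in the fly wing acts on Wingless and Hedgehog, lies on chromosome 3L from 14632601 to 14671609 on the plus strand. Its level was 54.2, 80.1 and 90.4 CPM in naive, 65.5, 74.5 and 111 in shocked High and Mid, and 66.8, 79.2 and 96.4 in shocked Low heads (lowest, median, highest). The head at 111 CPM, shocked High replicate 6, was the only 1 of those 14 above every naive head. The shock difference of dlp was -0.00 (SE 0.08, adjusted p = 0.997 by edgeR). Without that head the difference within High went from 0.01 to -0.11 and that between shocked High and shocked Mid from 0.07 to -0.05, and neither passed.

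Syndecan (Sdc), a receptor-like core protein that takes part in Slit signalling at the fly midline, lies on chromosome 2R from 21392402 to 21481176 on the minus strand. Naive heads had 313, 370 and 481 CPM, shocked High heads 268, 356 and 524, shocked Mid heads 312, 412 and 548, and shocked Low heads 292, 372 and 510 (lowest, median, highest). The shocked High and Mid heads thus reached both below and above the naive range. Within Mid the shock difference was 0.17 (SE 0.13, adjusted p = 0.569 by edgeR) and within High -0.06 (SE 0.14, adjusted p = 0.971 by edgeR). Between shocked High and shocked Mid heads it was -0.18 (SE 0.13, adjusted p = 0.523 by edgeR).

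Perlecan (trol), the secreted core protein of basement membranes, lies on chromosome X from 2470460 to 2545427 on the minus strand. Shocked High heads had 210, 227 and 258 CPM and shocked Mid heads 171, 194 and 247 CPM as lowest, median and highest. Of the 8 shocked Mid heads, 6 were below every shocked High head, but the highest shocked Mid head lay inside the High range. The log2 difference was 0.22 (SE 0.08, 95% interval 0.07 to 0.38), with an adjusted p of 0.128 by edgeR's quasi-likelihood test, so it did not pass. Over the alternatives its adjusted p ranged from 0.0664 to 0.253. In the authors' deposited table trol was lower in shocked Mid than in shocked High heads by a log2 value of -0.23 with a q-value of 0.0977, the smallest of the 90 values for the 9 genes other than Sulf1.

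Tissue markers moved with that comparison. Between shocked High and shocked Mid heads all 5 neuronal markers had positive differences (median 0.17) and all 4 fat body markers tested had negative ones (median -1.01). All 5 antennal markers were negative too (median -1.23), each at an unadjusted p under 0.05 but none passing (smallest adjusted p = 0.066 by edgeR). Muscle and photoreceptor markers were positive in 5 of 5 each (medians 0.13 and 0.10), glial markers in 1 of 5 (median -0.06) and haemocyte markers in 2 of 5 (median -0.19). Lsp2, a larval serum protein gene of the fat body, passed at -4.74 (SE 0.94, adjusted p = 0.0245 by edgeR). Summed fat body markers had medians of 2620 CPM in shocked High (range 1510 to 4339) and 4549 CPM in shocked Mid heads (range 2474 to 10500), and summed neuronal markers 4155 (2790 to 4394) and 3474 CPM (3211 to 3816). Summed antennal markers had medians of 191 (11.7 to 678) and 661 CPM (306 to 1016). Their part in the trol and Sdc differences was not tested.

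Over all 9 comparisons, 0 of the 9 genes other than Sulf1 passed an adjusted p of 0.05 by edgeR's quasi-likelihood test. At an unadjusted p under 0.05 there were 1 in the pooled shock comparison (Hs6st), 2 within High (botv and dally), 2 between naive classes (sfl and dally) and 1 between shocked classes (trol). DESeq2 and limma called 0 of them as well. Both dally values rest on naive High replicate 4. Of all 10272 genes, 647 (6.3%), 581 (5.66%), 317 (3.09%) and 1797 (17.5%) were at that unadjusted level in these comparisons, in the same order. The median log2 shock difference of the 9 was -0.02, beside 0.00 for all genes tested.

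**Figure D4:**
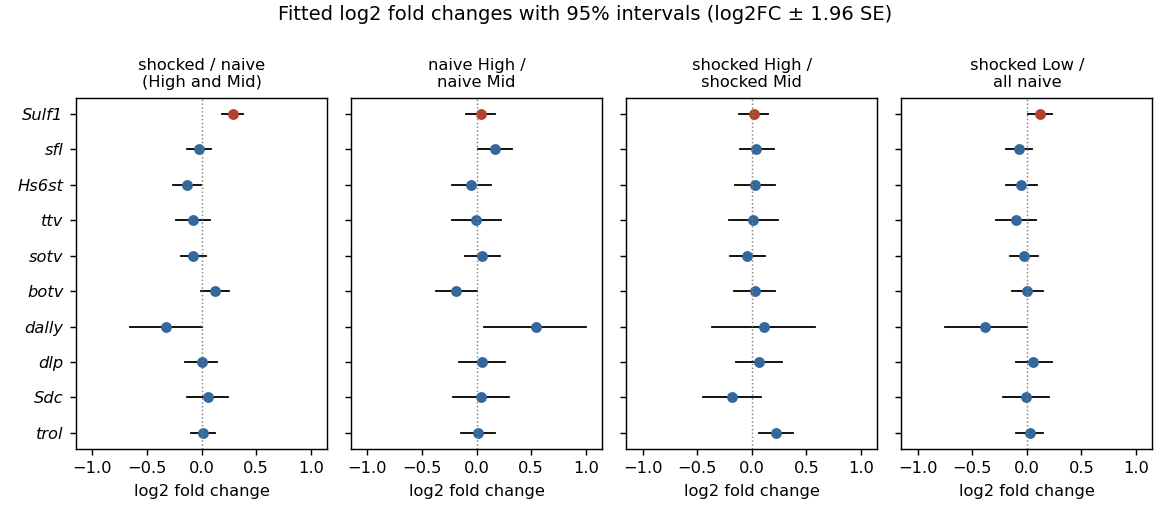
Log2 differences of the 10 genes (Sulf1 in red) in 4 comparisons, 1 panel each. The 95% intervals were computed from each edgeR difference and its SE with a normal approximation, apart from the quasi-likelihood test. Sulf1 is a description in all 4 panels. Intervals of the other 9 genes are widest for dally (-0.66 to 0.00 in the shock comparison). Among those that exclude 0 are Hs6st in the shock comparison (-0.26 to -0.01) and sfl between naive classes (0.01 to 0.32). Another is trol between shocked classes (0.07 to 0.38), and none of these differences passed.

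The rest of the pathway was read from 80 further genes in 12 lists, of which 78 were tested; frc had 0 counts in every library and CG30059 did not pass the filter. None of the 78 passed in any of the 9 comparisons by edgeR. In the shock comparison 2 of the 78, bnl and Papst2, had an unadjusted p under 0.05, or 2.56%. Between shocked High and shocked Mid heads 16 of the 78 did, or 20.5%, in a comparison where 1797 of all 10272 genes did.

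Among enzymes and donors, shock differences were small. Other modifying enzymes had a median of 0.02 (2 positive, 2 negative), with 0.08 for Hsepi, the epimerase (SE 0.07), and -0.08 for Hs3st-A, a 3-O-sulfotransferase (SE 0.07). Enzymes of the linkage region that joins the chain to its core protein had a median of 0.03 (5 positive, 1 negative), with -0.07 for GlcAT-I (SE 0.07) and 0.04 for GlcAT-S (SE 0.05). All 6 tested genes of sugar nucleotide and sulfate donor supply were positive (median 0.06), with 0.19 for the sulfate donor transporter Papst2 (SE 0.08, adjusted p = 0.693 by edgeR) and 0.10 for sgl, which makes UDP-glucuronic acid (SE 0.06). Lysosomal breakdown genes had a median of 0.10 (7 positive, 2 negative), with 0.39 for CG15117 (SE 0.20, adjusted p = 0.802 by edgeR). All genes tested had a median of 0.00.

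Of the matrix and signalling lists, the FGF pathway held the gene with the smallest p of the 78. That gene, bnl, which encodes the FGF ligand Branchless, differed by -0.50 (SE 0.13, adjusted p = 0.23 by edgeR), and the FGF ligand gene pyr by -0.13 (SE 0.07), with a list median of -0.02 (3 positive, 3 negative). Wnt genes had a median of 0.10 (5 positive, 2 negative), with 0.13 for the co-receptor gene arr (SE 0.07) and 0.10 for the receptor gene fz2 (SE 0.07). BMP genes had a median of 0.03 (6 positive, 2 negative), with 0.07 for the receptor gene wit (SE 0.05) and 0.10 for the ligand gene gbb (SE 0.08). Neither list held a gene that passed.

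Hedgehog genes had a median of -0.02 (2 positive, 4 negative), with 0.22 for the receptor gene ptc (SE 0.16) and -0.28 for the co-receptor gene ihog (SE 0.24). EGF receptor genes had a median of -0.01 (3 positive, 4 negative), with 0.23 for Egfr itself (SE 0.16) and -0.09 for S (SE 0.08). Basement membrane partners of perlecan had a median of -0.02 (5 positive, 6 negative), with 0.12 for the laminin gene LanB2 (SE 0.19) and 0.05 for the peroxidasin gene Pxn (SE 0.08). By class these genes had 10 positive and 1 negative difference within High (median 0.13), and 2 positive and 9 negative within Mid (median -0.13). Of all genes tested, 48.3% were positive within High and 52.6% within Mid. Muscle markers were positive in 5 of 5 within High and in 2 of 5 within Mid. None of the basement membrane genes had an unadjusted p under 0.05 in either class or in the interaction (median 0.26). The list of other proteoglycan genes and the secreted hydrolase gene Notum had a median of -0.03 (1 positive, 2 negative). It held 0.03 for the secreted proteoglycan gene Cow (SE 0.05) and -0.03 for wdp (SE 0.06).

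Slit, its Robo receptors and the syndecan and glypican receptor Lar had a median shock difference of -0.02 (2 positive, 3 negative), with 0.17 for lea (SE 0.13) and -0.05 for Lar (SE 0.07). By class, all 5 were positive within High (median 0.14) and all 5 negative within Mid (median -0.15), beside medians of -0.01 and 0.01 for all genes tested. The interaction was positive for all 5 (median 0.28), with 4 at an unadjusted p under 0.05 and a smallest adjusted p of 0.294 by edgeR, in a comparison where 12.3% of all genes were at that unadjusted level. Between shocked High and shocked Mid heads all 5 were positive with a median of 0.21, beside -0.01 for all genes tested. The ligand gene sli, named after its values were seen, had 0.31 (SE 0.09, adjusted p = 0.084 by edgeR) and Lar 0.22 (SE 0.09, adjusted p = 0.2 by edgeR). None of the 5 passed in any of these comparisons. Neuronal markers were positive in 5 of 5 in the interaction and between shocked classes, and negative in 5 of 5 within Mid. Within High they were mixed, with 2 positive and 3 negative. Muscle markers were positive in 5 of 5 within High, in the interaction and between shocked classes, and in 2 of 5 within Mid. In the interaction 2 of 5 glial, 4 of 5 haemocyte and 4 of 5 photoreceptor markers were positive. All 4 fat body and all 5 antennal markers were negative there. The part of any tissue was not tested.

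Heads of 1 group also differed among themselves in these genes, and part of that spread went with tissue markers. Deviations of log2 CPM from the group mean were correlated over the 37 heads, in 115 pairs of a gene with another gene or a marker list, with 100000 permutations each. The polymerase ttv followed the neuronal markers most closely, with Pearson's r of 0.79 and Spearman's rho of 0.69 (permutation p = 1e-05 for each, the smallest they can give, adjusted 0.00115 over the 115). The r was positive in all 5 groups and 0.68 without the 2 heads farthest from the median in their neuronal marker deviation. In every pair the 2 farthest heads were chosen by the marker list, or by the first gene of 2. A head outlying only in the other gene could therefore stay in. Hs6st followed them with r of 0.60 and rho of 0.56 (permutation p = 7e-05 and 0.00035, adjusted 0.00345 and 0.0134), with r of 0.45 without the 2 farthest heads and the same sign in 4 of 5 groups. For sfl r was 0.48 and rho 0.46 (permutation p = 0.0029 and 0.00437, adjusted 0.0476 and 0.0628, so that only r passed), and r was 0.54 without the 2 farthest heads.

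Sdc behaved otherwise. It went with the fat body markers (r = 0.60, rho = 0.62, permutation p = 9e-05 and 8e-05, adjusted 0.00345 and 0.0046), positive in 5 of 5 groups and 0.57 without the 2 farthest heads. With muscle markers it was negative (r = -0.50, rho = -0.52, permutation p = 0.00162 and 0.00133, adjusted 0.0373 and 0.0306; -0.45 without the 2 farthest heads). With glial markers r was 0.48 and rho 0.47 (permutation p = 0.00211 and 0.00315, adjusted 0.0404 and 0.0517), so only r passed; it was 0.42 without the 2 farthest heads. Of 70 pairs of a gene with a marker list, these 6 passed by r. For dally and neuronal markers rho passed and r did not (r = 0.45, rho = 0.50, permutation p = 0.0169 and 0.00178, adjusted 0.158 and 0.0341), with the same sign in 5 of 5 groups and r of 0.43 without the 2 farthest heads. All pairs share libraries and the scaling of each library.

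**Figure D5:**
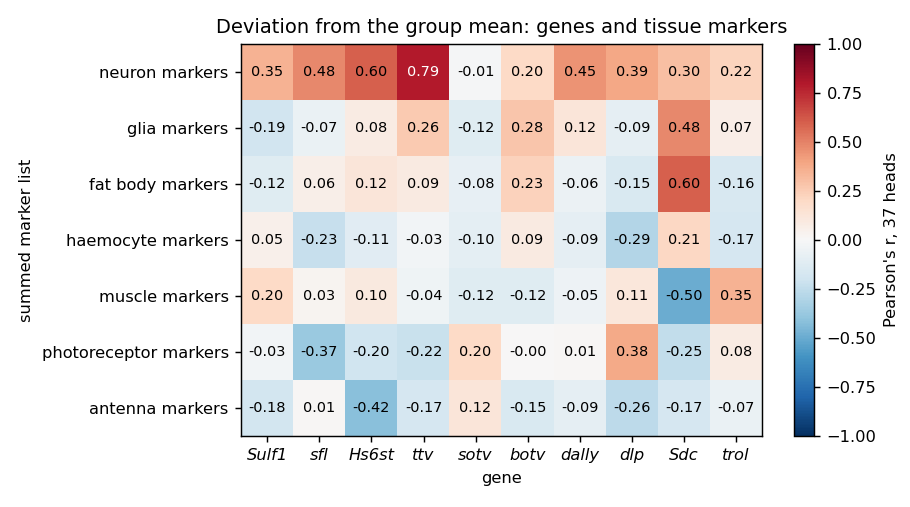
Pearson's r over 37 heads between each of the 10 genes and the summed markers of 7 tissues, both as deviations from the group mean on the log2 scale. The strongest cells are ttv with neuron (0.79), Hs6st with neuron and Sdc with fat body (0.60 each).

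Among the 45 pairs of the 10 genes, 35 had a positive r, between -0.24 and 0.59 with a median of 0.12. The pair of ttv and dally was the 1 that passed (r = 0.59, rho = 0.54, permutation p = 0.00012 and 0.00063, adjusted 0.00345 and 0.0181), with r of 0.49 without the 2 farthest heads. It was 0.46 in the 35 heads left without naive High replicate 4 and shocked Low replicate 4. In 16 pairs with Sulf1 none passed by r or by rho. Nearest were neuronal markers (r = 0.35, rho = 0.41, permutation p = 0.0363 and 0.0113, adjusted 0.22 and 0.129) and Hs6st (r = 0.34, rho = 0.39, permutation p = 0.0389 and 0.0185, adjusted 0.224 and 0.129).

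The genes whose deviations were most like those of Sulf1 over the 37 heads, among 7552 genes, were Mal-B1 (r = 0.66), lute (0.64), stau (0.63), rhea (0.62) and CG6424 (0.62). The lowest were Uch (-0.58), viaf (-0.57) and CG2767 (-0.55). These are extremes of many values and carry no p. Of the heparan sulfate genes Hs6st was nearest to Sulf1 (r = 0.34, percentile 93.5 of those genes), and dlp farthest (r = -0.16, percentile 26.1).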

How the data were processed

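Per the series design text, the authors trimmed adaptors, mapped reads to dm6 with STAR, dropped reads of mapping quality below 8, and counted exon reads with HTSeq-count. No source used here gives tool versions or the strand setting. Raw counts per gene were deposited in 1 table. The authors' deposited comparison table holds log2 fold changes and q-values (adjusted p-values), from DESeq2 per the series design text. Of 39 labelled samples, 37 had a column; 2 shocked High samples were not analysed here, and 2 columns that match no sample were not used. The extraction text also speaks of nuclear RNA-seq, which was left unresolved.

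Genes were filtered (filterByExpr) and scaled (TMM), and 1 quasi-likelihood model of 5 groups was fitted to 10272 genes with edgeR 4.0.16 in R 4.3.3, with Benjamini-Hochberg adjustment over all genes at 0.05. No covariate was used. Levels are CPM with TMM library sizes; log2 CPM used a prior count of 2. The script was tested on simulated data with 200 changed genes. Alternatives were DESeq2 1.42.0, limma 3.58.1, RLE scaling, no filter, only the groups compared, a replicate block, library total as covariate, and leaving out each library. Permutations and figures used Python 3.11.15 (scipy 1.17.1, numpy 2.4.6, matplotlib 3.10.9, pandas 2.3.3). Positions and exon lengths are from Ensembl release 115; trol was matched there by symbol.

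The members and lists were chosen with earlier results of these data known. Named list genes were those that passed plus the 2 with the smallest p in the shock comparison, of which 1 is not reported here; likeness to Sulf1 used the 5 highest and 3 lowest r among genes of at least 10 CPM. No label used here tells batches apart, so batches could not be separated. P-values measure the spread between flies, 1 head each. With 104 or more counts per gene and library, depth limits botv most.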

Additional observations from a re-analysis of the deposited data

Results flagged for a closer look

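Among 50 sets of values, each 1 gene in 1 group, 2 held a head that stood apart from its group by Dixon's test at the 95% level, which chance gives in about 1 of 20 sets. For dally, naive High replicate 4 had 449 CPM, and the next head of the group 111 CPM. For Sdc, shocked Low replicate 4 had 510 CPM, and the next head of the group 403 CPM, with a gap right at the critical value of 0.493 for 9 heads. That head also had the highest summed fat body markers of the shocked Low group, 5174 CPM; their part in its Sdc level was not tested.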

How the results depend on the processing

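The shock difference of Sulf1 ranged from 0.27 to 0.32 over 35 alternatives. Of the 10 genes, 0 passed within Mid as reported, and 1, Sulf1, did with DESeq2, limma and the replicate block; leaving out 1 library gave 0 to 1 (1 without shocked Mid replicate 8). Since this difference helped to choose Sulf1, that count is no support for it. Differences turned sign for dally with DESeq2 (0.08 within High, 0.20 in the interaction, -0.08 between naive classes) and without naive High replicate 4 (0.08, 0.20 and -0.09). Over all single libraries left out, these ran from -0.65 to 0.08, from -0.53 to 0.20 and from -0.09 to 0.64; DESeq2 replaced that head's count of 2597 by 537. For dlp they turned without shocked High replicate 6 (-0.11 within High, -0.05 between shocked classes), with -0.11 to 0.06 and -0.05 to 0.13 over all single libraries left out. Of 2300 recomputed differences 153 changed sign, 8 of them by over 1 SE, and of 2070 for the 9 genes other than Sulf1 0 passed. The replicate numbers did not pair the libraries (median r of same-numbered pairs 0.02, from -0.33 to 0.3 in 67 pairs). Counts over all genes moved more. Shocked High against Mid gave 7 genes as reported, 310 with DESeq2, 668 with limma, 13 with RLE, 67 with only the groups compared, 748 with the block, 21 with the library total and 0 to 548 on leaving out 1 library; shocked Low against Mid gave 2, with 150 by DESeq2, 6 by limma, 7 without the filter, 1 with the block, 1 with the library total and 1 to 52 on leaving out 1 library. The pooled shock comparison gave 1, with 8 by DESeq2, 3 by limma, 2 with only the groups compared, 4 with the block, 2 with the library total and 1 to 5 on leaving out 1 library; within Mid gave 2, with 21 by DESeq2, 8 by limma, 4 without the filter, 14 with only the groups compared, 16 with the block, 1 with the library total and 0 to 6 on leaving out 1 library. The causes were not tested. The interaction gave 0, with 3 by DESeq2, 2 by limma and 0 to 4 on leaving out 1 library; shocked Low against naive gave 0, with 2 by DESeq2, 1 without the filter, 1 with the block and 0 to 1 on leaving out 1 library.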
